A study of Mus musculus with 12 samples.

Results

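The tissue inhibitors of metalloproteinases and the plasminogen activator system were followed in fibrotic mouse liver through 7 genes of the 21936 in the deposited RNA-seq table, each taken by its gene name: the inhibitors Timp1, Timp2 and Timp3, the serpin Serpine2, the plasminogen activators Plat and Plau, and the receptor Plaur. Livers came from male C57BL/6 mice (C57BL/6J in the study's methods) that were 6 weeks old on arrival and fed for 1 week before modeling. All 3 groups analysed here received carbon tetrachloride (CCl4), a hepatotoxin, at 1 mL/kg intraperitoneally 2 times a week for 8 weeks. Livers of the fibrosis group (LFG) were taken when CCl4 ended. Mice of the regression group (REG) were then given 200 µL of PBS by tail vein 2 times a week for 4 weeks, and the hADMSCs-Exo group was given 250 µg of exosomes (as protein) from human adipose mesenchymal stem cells in the same volume on the same schedule. Each group had 3 libraries of whole liver RNA. LFG livers were therefore taken 4 weeks before the others, so that time since CCl4 and treatment cannot be told apart in comparisons with LFG. Livers without CCl4 and the group given whole hADMSCs were not analysed here. Nothing in the labels says that the libraries of a group came from separate mice, and p-values then measure only the spread between these libraries.

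TIMPs are secreted proteins that bind and block matrix metalloproteinases, the enzymes that cut collagen and other matrix proteins. Plasminogen, made mainly by hepatocytes, is cut to the protease plasmin by tissue-type activator (Plat) or urokinase (Plau), and plasmin degrades fibrin, cuts matrix proteins and can activate metalloproteinase precursors. Serpins such as Serpine2 inhibit the activators, and Plaur holds urokinase at the cell surface. In fibrotic liver, stellate cells and the myofibroblasts derived from them are known as a main source of TIMPs, which slow the removal of scar.

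Levels are given as CPM, read counts relative to the library total after scaling by TMM (trimmed mean of M values), a factor that aligns the bulk of genes between libraries. Libraries held 13837445 to 19840917 counts. One library stood apart from its group: in LFG 3, 13924 genes were detected against 15100 and 15248 in LFG 2 and LFG 1, and the summed level of 13 stellate cell and myofibroblast markers was 74.1 CPM against 1035 and 1526. Col1a1, the fibrillar collagen of scar, was 2.68 CPM in LFG 3, the lowest of the 9 libraries, against 259 and 127 CPM in LFG 1 and LFG 2. These values go against the label of a fibrotic liver, and whether LFG 3 was one could not be settled from the files. All LFG means and SDs, and all fits with 3 LFG libraries, include it. The same sum was 237 to 407 CPM in REG and 92.9 to 258 CPM in hADMSCs-Exo. The defining hepatocyte markers were high in all 9 libraries, with a sum of 87370 to 184427 CPM over 10 genes. Counts of called genes that involve LFG are given with and without LFG 3. LFG 3 was set apart by values of these same data, so calls without it are not an independent test. In whole tissue, fewer cells of a type and less RNA per cell cannot be told apart.

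The 7 genes lie on 7 chromosomes of the GRCm38 mouse genome, and all are protein coding. Timp1 is on chromosome X (20870166 to 20874735, plus strand), Timp2 on chromosome 11 (118301069 to 118355740, minus strand) and Timp3 on chromosome 10 (86300372 to 86349506, plus strand). Serpine2 is on chromosome 1 (79794197 to 79861180, minus strand), Plat on chromosome 8 (22757727 to 22782844, plus strand), Plau on chromosome 14 (20836660 to 20843385, plus strand) and Plaur on chromosome 7 (24462484 to 24475968, plus strand). Timp1 lies inside Syn1 on the opposite strand with 0 shared exon bases, and Timp3 lies inside the region of Syn3, with 1733 exon bases shared on opposite strands. Syn3 had 3 to 15 counts per library and Syn1 0 to 35. Because the counting is not stated to use strand, reads in shared bases cannot be assigned with certainty, which matters for the lowest Timp3 value of 6 counts.

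Promoter sequences from RefSeq (GRCm38.p6) were matched for 5 of the 7 genes, and 3 are shown because their genes had contrasting patterns over the libraries: Serpine2 separated all groups, Timp1 varied within groups, and Plaur had its lowest mean in REG. The letters searched on both strands were TGANTCA for the AP-1 motif, GGGCGG for the Sp1 motif, CAGAC for the SMAD motif, TATAAA for the TATA box and CCGGAA for the ETS motif. Capitals mark every match, adjacent Sp1 matches can share a base, and each sequence reads 5′ to 3′ on the strand of its gene up to the RefSeq start of transcription or to the first base of an annotated exon. The Serpine2 window lies inside the annotated gene, whose outermost start is at 79861180, in bases that are part of no annotated exon of Serpine2.
Serpine2, chr1:79858697-79858915, minus strand: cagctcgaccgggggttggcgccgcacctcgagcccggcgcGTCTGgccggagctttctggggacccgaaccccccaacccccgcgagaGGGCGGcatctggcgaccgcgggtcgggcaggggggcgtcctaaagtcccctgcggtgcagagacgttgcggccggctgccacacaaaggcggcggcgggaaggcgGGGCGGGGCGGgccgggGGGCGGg
Plaur, chr7:24462233-24462482, plus strand: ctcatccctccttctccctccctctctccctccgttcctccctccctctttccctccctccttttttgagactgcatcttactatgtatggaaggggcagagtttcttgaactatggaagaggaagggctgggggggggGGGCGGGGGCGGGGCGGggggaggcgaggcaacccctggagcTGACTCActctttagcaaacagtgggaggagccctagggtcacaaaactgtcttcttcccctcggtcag
Timp1, chrX:20869916-20870165, plus strand: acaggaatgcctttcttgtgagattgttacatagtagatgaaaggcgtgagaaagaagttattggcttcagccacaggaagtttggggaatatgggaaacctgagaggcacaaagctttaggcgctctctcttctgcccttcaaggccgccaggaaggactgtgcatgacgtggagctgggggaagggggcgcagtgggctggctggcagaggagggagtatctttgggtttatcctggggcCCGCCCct
Within the 250 bases before the RefSeq start, Serpine2 held 6 Sp1 matches, of which 4 are printed, and 1 SMAD match. The Plaur window held 3 Sp1 matches and 1 AP-1 match that began 69 bases upstream of the start. Timp1, Timp2 and Timp3 held 1 Sp1 match each. Of 32851 mouse promoters of the same length, 32.7% held an Sp1 match, 42.2% a SMAD match, 6.75% an AP-1 match, 12.4% a TATA box match and 12.03% an ETS match. A match is a run of letters and does not show binding.

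Between genes, levels were compared as FPKM, the deposited value that divides fragments by gene length and library total. Timp2 had the highest mean FPKM in every group, with 11.03 ± 8.34 in LFG, 4.13 ± 0.928 in REG and, for hADMSCs-Exo, 3.39 ± 0.629 (SD, n = 3). In REG and hADMSCs-Exo its 3 libraries lay above those of the next gene, Timp1, with no overlap. Plat had the lowest mean FPKM in every group, at 0.973 ± 0.868 in LFG, 0.274 ± 0.109 in REG and 0.0518 ± 0.0649 in hADMSCs-Exo (SD, n = 3). In LFG every neighbour in the order overlapped the next, so that the order Timp2, Timp1, Timp3, Serpine2, Plau, Plaur, Plat there is one of means only. In REG the order was Timp2, Timp1, Timp3, Plau, Serpine2, Plaur, Plat, with the only other gap between Plau and Serpine2. In hADMSCs-Exo it was Timp2, Timp1, Plau, Timp3, Plaur, Serpine2, Plat, with gaps also on both sides of Serpine2.

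**Figure D1:**
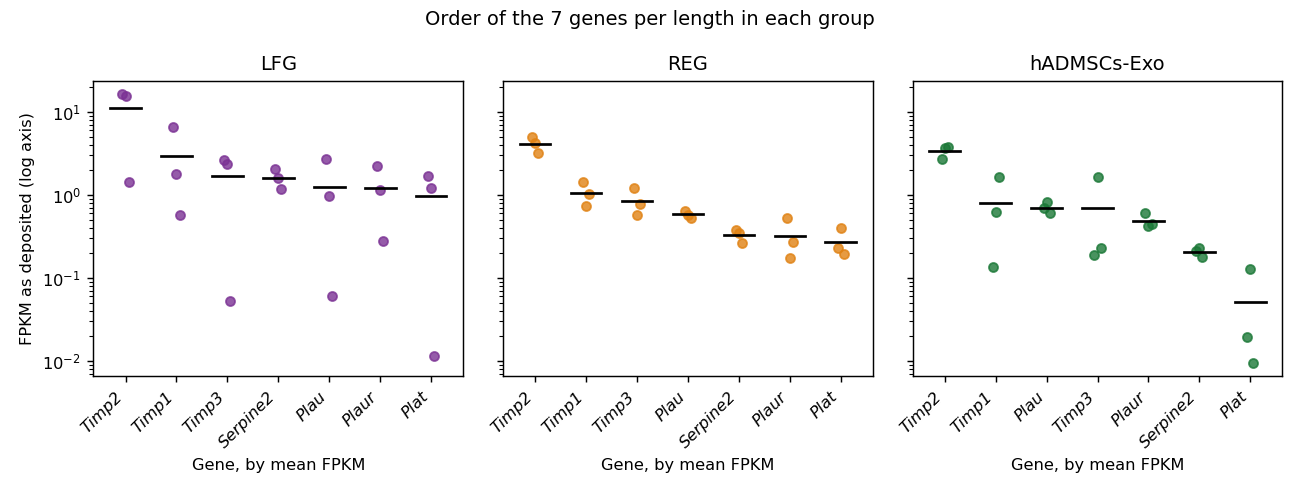
FPKM as deposited (log axis) of the 7 genes in the 3 libraries of each group, ordered by their mean (black line). Timp2 led and Plat was last in each group, and in REG and hADMSCs-Exo all Timp2 points lay above those of every other gene, while in the LFG panel the lowest point lay far below the others for Timp2, Timp3, Plau and Plat.

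Timp1, a secreted inhibitor that is part of serum panels for fibrosis, was low in these livers. It was 4.21, 1.45 and 0.626 CPM in LFG 1 to 3, 1.29, 0.714 and 0.955 CPM in REG 1 to 3, and 0.118, 0.542 and 1.57 CPM in hADMSCs-Exo 1 to 3. The high value was LFG 1 with 100 counts and the low value hADMSCs-Exo 1 with 2 counts (exact Poisson 95% interval 0.242 to 7.22, counting error only), and the groups overlapped in all comparisons.

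Timp2, which both inhibits metalloproteinases and takes part with Mmp14 in activating pro-Mmp2, was 45.7, 55.6 and 6.79 CPM in LFG 1 to 3. It was 20.1, 17.7 and 13.0 CPM in the REG libraries and 10.1, 14.3 and 15.9 CPM in the hADMSCs-Exo libraries. LFG 1 and LFG 2 lay above the 6 later libraries, LFG 3 lay below them all, and REG and hADMSCs-Exo overlapped.

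Timp3, the TIMP that stays bound to the matrix, was 15.4, 17.4 and 0.536 CPM in LFG 1 to 3, 9.98, 5.05 and 6.69 CPM in REG, and 1.48, 13.4 and 2.02 CPM in hADMSCs-Exo. It was high in LFG 1, LFG 2 and hADMSCs-Exo 2 and low in LFG 3, hADMSCs-Exo 1 and hADMSCs-Exo 3. Endothelial markers differed in the same direction within LFG and within hADMSCs-Exo: the sum of 12 genes was 339 CPM in hADMSCs-Exo 2 against 112 and 114 CPM in hADMSCs-Exo 1 and 3, and 94.3 CPM in LFG 3 against 248 and 308 CPM in LFG 1 and 2. In REG 1 to 3 the sum was 429, 227 and 167 CPM, so that REG 1 had the highest sum of the 9 libraries but less Timp3 than LFG 1, LFG 2 and hADMSCs-Exo 2, and REG 3 had a lower sum but more Timp3 than REG 2. The stellate cell and myofibroblast sum likewise was lowest in LFG 3 of its group (1526, 1035 and 74.1 CPM in LFG 1 to 3). It was highest in hADMSCs-Exo 2 of its group (92.9, 258 and 148 CPM in hADMSCs-Exo 1 to 3). The macrophage sum was lowest in LFG 3 of its group (1156, 826 and 149 CPM in LFG 1 to 3) but not highest in hADMSCs-Exo 2. The part of these lists in the Timp3 values was not tested.

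Serpine2, a serpin that inhibits thrombin, urokinase and tissue-type activator, was 12.2 CPM in each LFG library, 3.20, 3.08 and 2.28 CPM in REG 1 to 3, and 1.72, 1.87 and 1.57 CPM in hADMSCs-Exo 1 to 3. The 3 groups did not overlap, with LFG highest and hADMSCs-Exo lowest, and LFG 3 was as high as its group. Scaled by library totals alone, the LFG values were 16.9, 13.3 and 9.83 CPM, still above all REG values of 2.17 to 3.12 CPM. After TMM scaling Serpine2 was the gene of the 7 whose level in LFG 3 was about that of LFG 1 and LFG 2, while the stellate cell marker sum there was the lowest of the 9 libraries.

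Plat, tissue-type plasminogen activator, was 7.70, 6.93 and 0.0894 CPM in LFG 1 to 3, 1.48, 2.69 and 1.27 CPM in REG, and 0.118, 0.783 and 0.0630 CPM in hADMSCs-Exo. Every hADMSCs-Exo library lay below every REG library. These low levels stood on 2, 13 and 1 counts in hADMSCs-Exo 1 to 3 against 24, 49 and 24 in REG 1 to 3, and on 1 count in LFG 3 (exact Poisson 95% interval 0.0253 to 5.57).

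Plau, urokinase-type activator, was 4.63, 2.12 and 0.179 CPM in LFG 1 to 3, 1.54, 1.48 and 1.33 CPM in REG, and 1.60, 1.93 and 1.51 CPM in hADMSCs-Exo. REG and hADMSCs-Exo lay close together, and LFG ranged from above to below both. Plaur, the urokinase receptor, was 4.25, 2.74 and 0.894 CPM in LFG 1 to 3, 1.42, 0.494 and 0.743 CPM in REG, and 1.54, 1.08 and 1.26 CPM in hADMSCs-Exo, and its groups overlapped in all comparisons. Macrophages and neutrophils are known to carry Plaur. The sum of 12 macrophage markers was 149 to 1156 CPM in LFG, 303 to 883 CPM in REG and 546 to 728 CPM in hADMSCs-Exo, and that of 8 neutrophil markers was 10.8 to 31.7 CPM in LFG, 11.5 to 61.2 CPM in REG and 37.3 to 55.1 CPM in hADMSCs-Exo. Their part in the Plaur values was not tested.

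**Figure D2:**
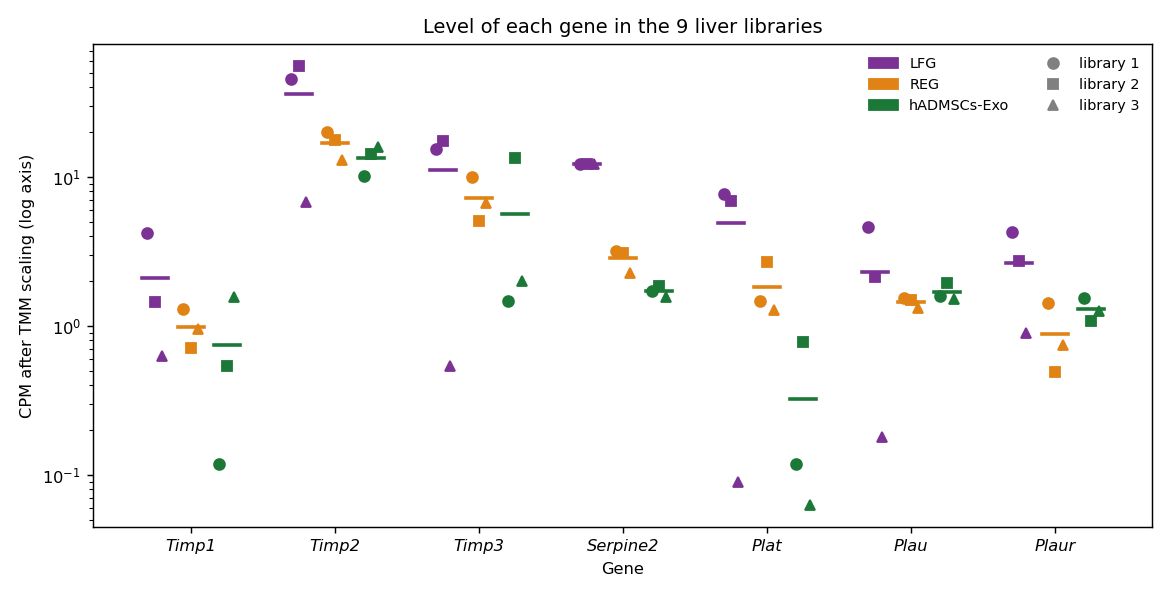
CPM after TMM scaling (log axis) of the 7 genes in each of the 9 libraries; colours are groups, marker shapes are library numbers and lines are group means. The 3 LFG points of Serpine2 coincide at 12.2 CPM above all other libraries, whereas for the other 6 genes LFG 3 lies below LFG 1 and LFG 2.

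The comparison of hADMSCs-Exo with REG addressed what exosomes added to recovery after CCl4 was stopped. None of the 7 genes was called by edgeR's quasi-likelihood test, where a call is an adjusted p (Benjamini-Hochberg over 12337 genes) under 0.05 with a log2 fold change of at least 1 in size; of all genes tested, 0.00811% were called. Without the adjustment 2 of 7 passed a p of 0.05, both lower, against 10.0% of all genes in either direction and 4.69% lower. Plat was lower by the largest amount of the 7, with a log2 fold change of -2.46 ± 0.76 (SE, 95% interval -4.20 to -0.72, edgeR adjusted p = 0.407). Serpine2 followed at -0.73 ± 0.29 (SE, 95% interval -1.40 to -0.06, edgeR adjusted p = 0.474). They were also the 2 genes whose groups did not overlap, both lower, against 15.5% of all genes and 7.47% lower. The exact permutation p was 0.1 for each, the smallest that 3 against 3 allows. With a single library left out, the Plat value ranged from -4.21 to -1.995 and the Serpine2 value from -0.87 to -0.62. Serpine2 kept an unadjusted p under 0.05 without REG 3 but not without any of the other 5 libraries, nor by DESeq2, with library totals alone or under the replicate block, and Plat did not pass that p with all 9 libraries in one fit.

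Most stellate cell and myofibroblast markers were also lower in hADMSCs-Exo than in REG. Of 12 markers tested, 11 were lower in hADMSCs-Exo, 7 of them at an unadjusted p under 0.05 and none higher, with a median log2 fold change of -1.14, and no marker was called after adjustment. The summed level was 92.9 to 258 CPM in hADMSCs-Exo and 237 to 407 CPM in REG, and of the 13 listed markers only Tagln was at 0, in all REG libraries, hADMSCs-Exo 2 and hADMSCs-Exo 3. Of 12 endothelial markers 11 were lower (1 at an unadjusted p under 0.05, median -0.61), and of 7 neutrophil markers 7 were higher (0 at that p, median 0.64). The part of these lists in the Plat and Serpine2 values was not tested.

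The remaining 5 genes did not differ beyond the spread between libraries. Timp1 was at -0.41 (95% interval -2.10 to 1.28), Timp2 at -0.34 (-0.87 to 0.19), Timp3 at -0.37 (-2.08 to 1.35), Plau at 0.21 (-0.50 to 0.92) and Plaur at 0.55 (-0.53 to 1.63), with adjusted p from 0.643 to 0.886 by edgeR. The Timp1 and Timp3 values rested on single libraries: without hADMSCs-Exo 1 they turned to 0.09 and 0.09, without hADMSCs-Exo 3 Timp3 was 0.03 and Timp1 was -1.56, and without hADMSCs-Exo 2 Timp3 was -2.05. Plaur ranged from 0.25 without REG 2 to 1.06 without REG 1, Plau from 0.0995 without hADMSCs-Exo 2 to 0.28 without hADMSCs-Exo 3, and Timp2 from -0.50 without REG 3 to -0.17 without hADMSCs-Exo 1. Over all 7 genes, 5 were lower in the fit and the median log2 fold change was -0.37, against 48.9% lower and a median of 0.0080 over all genes. That median and count rested on hADMSCs-Exo 1: without it 3 of 7 were lower and the median was 0.087, and without REG 1 the median was -0.16. In the other direction, the median was -0.58 without REG 2, -0.48 without hADMSCs-Exo 3 and -0.52 by limma voom.

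The comparison of hADMSCs-Exo with LFG set treated livers against livers at the end of CCl4. The 7 genes were all lower in the fit, with a median log2 fold change of -1.44, against 56.9% lower and a median of -0.059 over all 12489 genes tested. Without LFG 1 the median was -0.69 and Plau lay above 0, and without LFG 2 the median was -1.03. With the replicate number as a block the median was -1.10 and Plau was at 0.094. None was called by edgeR, and of all genes 0% were called (0 of 12489, with 747 or 5.98% at an unadjusted p under 0.05, 3.68% lower). Serpine2 had the smallest p of all 12489 genes, with a log2 fold change of -2.83 ± 0.25 (SE, 95% interval -3.43 to -2.23, edgeR adjusted p = 0.144). It was lower in 3 of 3 hADMSCs-Exo libraries than in any LFG library, as the 1 gene of 7 without overlap, against 12.3% of all genes and 5.93% lower. Plat was at -3.93 ± 1.44 (SE, edgeR adjusted p = 0.805) and was the other gene with an unadjusted p under 0.05. It ranged from -5.65 without hADMSCs-Exo 2 to -3.44 without hADMSCs-Exo 3, and it no longer passed that p without LFG 1, LFG 2, hADMSCs-Exo 1 or hADMSCs-Exo 3.

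Timp1 was at -1.53, Timp2 at -1.44, Timp3 at -1.01, Plau at -0.50 and Plaur at -1.05 on the log2 scale, with 95% intervals that held 0 in each case and adjusted p of 0.805 to 0.953 by edgeR. These values moved with single libraries: Timp1 ranged from -2.66 without hADMSCs-Exo 3 to -0.51 without LFG 1, Timp3 from -2.68 without hADMSCs-Exo 2 to -0.53 without hADMSCs-Exo 1, and Plaur from -1.42 without LFG 3 to -0.51 without LFG 1, where Plau turned to 0.49. Without LFG 3, 3 of 7 genes were called lower, against 4.50% of all genes lower and 5.97% in either direction: Timp2 at -1.90 (adjusted p = 0.0170), Serpine2 at -2.81 (adjusted p = 0.00877) and Plat at -4.46 (adjusted p = 0.0240). At an unadjusted p under 0.05, 4 of 7 were then lower, against 15.7% of all genes. The Serpine2 value moved little with that library, between -2.88 and -2.76 whichever library was left out. Serpine2 was called with all 6 libraries by DESeq2 (adjusted p = 1.42e-20) and by limma voom with quality weights (adjusted p = 0.0274), and by edgeR with all 9 libraries in one fit (adjusted p = 0.0124). It was not called by edgeR with the replicate number as a block (-2.83, adjusted p = 0.823) or with library totals alone (-2.96, adjusted p = 0.515). Nor was it called by edgeR with RLE factors (adjusted p = 0.141), no filter (adjusted p = 0.183) or at least 10 counts per library (adjusted p = 0.0858). With any single library but LFG 3 left out, edgeR called 0 of the 7 genes, with Serpine2 at adjusted p of 0.659 to 0.99995. Among all genes, DESeq2 called 60, limma voom 1 and the fit of all 9 libraries 1.

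Cell type markers differed in the same comparison. With all 6 libraries, 7 of 12 stellate cell markers were lower at an unadjusted p under 0.05 (median log2 fold change -2.03, 0 called), and at the same p 0 of 12 macrophage markers were lower and 5 of 7 neutrophil markers were higher. Without LFG 3, 11 of 12 stellate cell markers (8 called lower, median -2.49) and 8 of 12 macrophage markers (3 called lower) were lower at that p, as were 4 of 7 cholangiocyte markers (1 called lower) and 3 of 8 mesothelium markers (0 called). In the fit without LFG 3, 5 of 7 neutrophil (2 called), 1 of 12 macrophage and 2 of 10 hepatocyte markers (1 called) were higher at that p. The part of these lists in the values of the 7 genes was not tested.

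REG against LFG compared livers after 4 weeks of PBS with livers at the end of CCl4. Again the 7 genes were all lower in the fit, with a median of -1.09 against 55.9% lower and a median of -0.068 over all 12517 genes, and none was called by edgeR (0% of all genes, with 1417 or 11.3% at an unadjusted p under 0.05, 6.70% lower). This comparison shares its LFG libraries with the one above. Serpine2 was at -2.08 ± 0.26 (SE, 95% interval -2.69 to -1.48, edgeR adjusted p = 0.230), ranked 4 of 12517 by p and was the 1 gene with an unadjusted p under 0.05. It was the 1 gene of 7 without overlap between the groups, against 18.9% of all genes and 10.0% lower. With all 6 libraries DESeq2 called Serpine2 (adjusted p = 5.44e-11), and limma voom with quality weights called Serpine2 (adjusted p = 0.00930), Timp2 (-1.51, adjusted p = 0.0222) and Plaur (-2.07, adjusted p = 0.0237). Among all genes, DESeq2 called 239 and limma voom 1285. The voom values of Timp2 and Plaur lay nearer those without LFG 3 (-1.54, -1.95) than the edgeR values with it (-1.08, -1.57). By edgeR, Serpine2 was not called with all 9 libraries in one fit (adjusted p = 0.0641), the replicate block (adjusted p = 0.442) or library totals alone (adjusted p = 0.234). Nor was it with RLE factors, no filter or at least 10 counts per library (edgeR adjusted p of 0.193 to 0.219).

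Plaur was at -1.57, Plat at -1.43, Timp1 at -1.09, Timp2 at -1.08, Plau at -0.68 and Timp3 at -0.61, with adjusted p of 0.456 to 0.821 by edgeR. Without LFG 1, Timp1 was at -0.08, Plat at -0.95, Plaur at -1.03 and Plau at 0.31, and without LFG 2, Timp2 was at -0.63 and Timp3 at -0.14. The signs for Timp3 and Plau depended on the measure: the mean log2 CPM of REG was 0.33 above LFG for Timp3 and 0.10 above for Plau. The fitted values were negative, as were the differences in mean log2(FPKM + 1), at -0.35 for Timp3 and -0.32 for Plau. For Plau the same held for hADMSCs-Exo against LFG, with a difference in mean log2 CPM of 0.29. With any single library but LFG 3 left out, edgeR called 0 of the 7 genes for REG against LFG. Without LFG 3, 5 of 7 genes were called lower, against 6.94% of all genes lower and 10.7% in either direction: Timp2 at -1.54, Timp3 at -1.14, Serpine2 at -2.05, Plat at -1.96 and Plaur at -1.95, with adjusted p of 0.0119 to 0.0395 by edgeR. Timp1 at -1.49 and Plau at -1.18 missed the threshold, with adjusted p of 0.0898 and 0.0875. Without that library, all 7 genes were lower at an unadjusted p under 0.05, against 19.1% of all genes, as were 10 of 12 stellate cell markers, 7 of 12 macrophage markers, 3 of 7 cholangiocyte markers (median -1.14) and 2 of 8 mesothelium markers (median -1.27). In the same fit without LFG 3, 4 of 10 hepatocyte markers (2 called) were higher at that p and 1 was lower. With LFG 3, 0 of 11 stellate cell, 1 of 12 macrophage, 0 of 7 cholangiocyte and 1 of 5 mesothelium markers were lower at that p. The part of these lists in the values of the 7 genes was not tested.

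**Figure D3:**
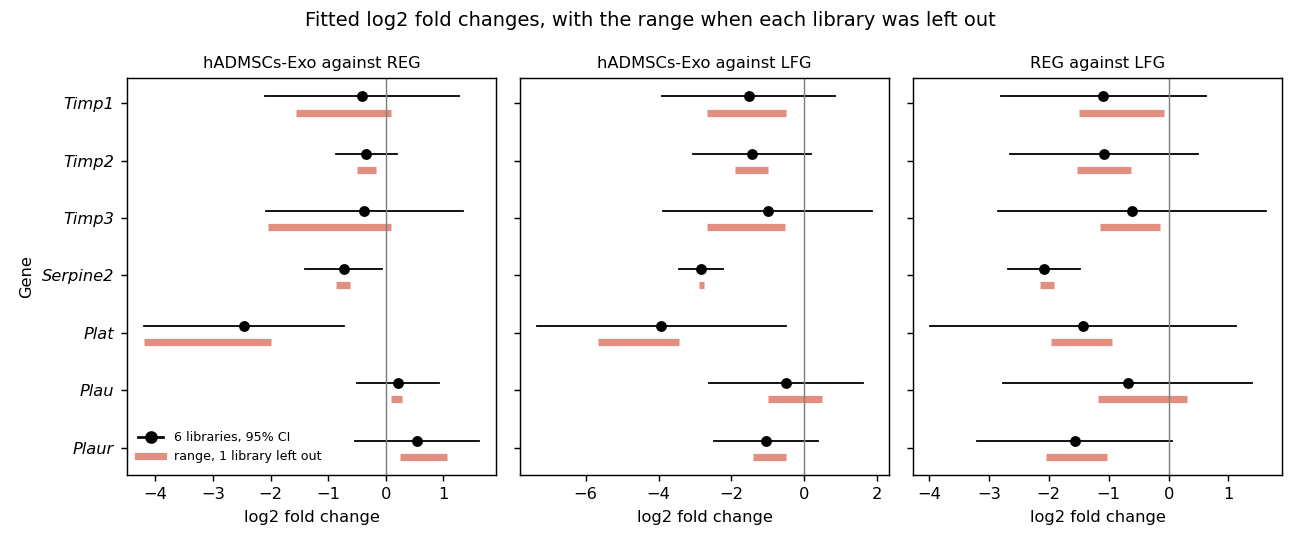
Fitted log2 fold changes of the 7 genes in the 3 comparisons (black points, bars are 95% confidence intervals from edgeR), with the range of values on leaving out single libraries (red bands). Serpine2 has the narrowest band in both comparisons with LFG, and the bands of Timp1 and Timp3 cross 0 for hADMSCs-Exo against REG.

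Over the 9 libraries, all 7 genes spanned more than 2 log2 units, from 2.84 for Plaur to 5.45 for Plat. The genes most like each were taken as those with the smallest root mean square difference of centred log2 CPM among 10840 genes with a mean log2 CPM of at least 1; the libraries share depth and composition, and the measure carries no test. Plat was closest to Col3a1 (0.57), Loxl2 (0.58) and Fbn1 (0.68), which encode a fibrillar collagen, a collagen cross-linking enzyme and fibrillin. Timp2 was closest to Mfge8 (0.22), Aebp1 (0.23) and Ltbp3 (0.24), and Timp3 to C1qtnf1 (0.42), Art4 (0.48) and Plpp1 (0.48). Timp1 was closest to Cenpm (0.42), Lgals1 (0.55) and Xxylt1 (0.55). Plau had close neighbours in Trpv2 (0.19), Glipr2 (0.19) and Sema4d (0.20), and Plaur in Tmem200b (0.27), Dapp1 (0.29) and Btg3 (0.32). Serpine2 was closest to Creld2 (0.57), a protein of the endoplasmic reticulum, Irs2 (0.59), an insulin receptor substrate, and Slc5a3 (0.61), a myo-inositol transporter.

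**Figure D4:**
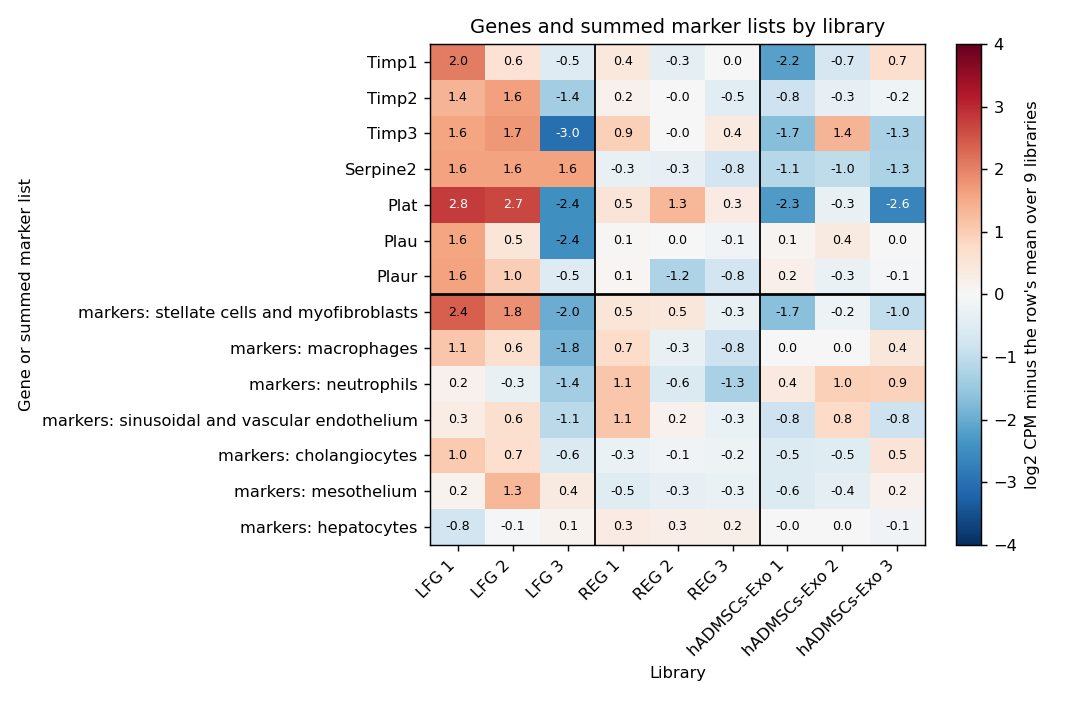
Log2 CPM of the 7 genes, and log2 of the summed CPM of 7 marker lists, each minus its mean over the 9 libraries (colour and printed value). Serpine2 is at 1.6 in all LFG libraries, while Timp2, Timp3, Plat and Plau fall to between -1.4 and -3.0 in LFG 3, where the stellate cell sum is at -2.0.

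Plasminogen and the main plasmin inhibitor are known as hepatocyte products. Plg, plasminogen, was 1222 ± 365 CPM in LFG, 2065 ± 264 in REG and 1917 ± 506 in hADMSCs-Exo (SD, n = 3), and Serpinf2, the plasmin inhibitor, was 586 ± 202, 985 ± 91.3 and 790 ± 281 CPM in the same order. The summed level of the 10 hepatocyte markers was 87370 to 162882 CPM in LFG, 174926 to 184427 CPM in REG, above every LFG library, and 134455 to 148196 CPM in hADMSCs-Exo, and its part in the Plg and Serpinf2 values was not tested. Against LFG, Plg was 0.77 higher on the log2 scale in REG (edgeR adjusted p = 0.433) and 0.64 higher in hADMSCs-Exo (edgeR adjusted p = 0.824). Without LFG 3, Plg was 0.87 and 0.73 higher with adjusted p of 0.0963 and 0.256, and Serpinf2 was 1.09 higher in REG (edgeR adjusted p = 0.0280).

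Of 31 other genes of the plasmin system, 30 were in the table and 26, 26 and 27 were tested in the 3 comparisons; with all libraries none was called after adjustment. For hADMSCs-Exo against REG, 4 passed an unadjusted p of 0.05 and all were lower: F3, tissue factor (-1.18), Serpinb8 (-0.88), S100a10, which with Anxa2 binds plasminogen at the cell surface (-0.86), and Tfpi2 (-0.46). Against LFG, hADMSCs-Exo had 1 higher, the plasminogen-binding Hrg (0.96), and 3 lower, among them Mrc2, a collagen uptake receptor (-2.44), and Thbd, thrombomodulin (-2.08). REG had 3 higher, F3 (1.40), Plg and Serpinf2 (0.76), and 2 lower, among them Thbd (-1.94). Without LFG 3, 27 were tested against LFG; 1 was called higher and 4 lower in hADMSCs-Exo, among them Mrc2 (-2.95) and Thbd (-2.53), and 3 were called higher and 5 lower in REG, among them F3 (1.99) and Thbd (-2.38). The medians of the list were -0.12, 0.21 and 0.36, so that in the comparisons with LFG its fitted median was above 0 while that of the 7 genes was below 0.

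Of 36 metalloproteinases and other inhibitors, 27, 28 and 26 were tested, and with all libraries none was called after adjustment. Mmp2, the gelatinase whose activation involves Timp2 and Mmp14, was 23.7, 38.6 and 0.536 CPM in LFG 1 to 3, 6.69 to 10.98 CPM in REG and 1.42 to 3.25 CPM in hADMSCs-Exo, a log2 fold change of -1.81 ± 0.35 for hADMSCs-Exo against REG (SE, edgeR adjusted p = 0.358). Mmp14 lay at 44.5 ± 20.4 CPM in LFG, 38.5 ± 7.26 in REG and 48.9 ± 6.89 in hADMSCs-Exo (SD, n = 3). In that comparison 4 genes of the list were higher at an unadjusted p under 0.05, among them Adam8 (0.88), and 3 lower, which were Mmp2, Adamts2, a procollagen protease (-1.36), and Reck, a membrane inhibitor of metalloproteinases (-1.16). Against LFG, 4 were lower in hADMSCs-Exo and none higher (Adamts9 at -2.54, Adamts5 at -1.92, Adamts2 at -2.43 and Mmp2 at -3.04), and 3 were lower in REG and none higher (Adamts10 at -1.05, Adam8 at -2.63 and Adamts1 at -1.29). The list medians were 0.15, -0.62 and -0.83. Without LFG 3, 32 genes of the list were tested against LFG; 10 were called lower and 0 higher in hADMSCs-Exo, among them Mmp2 (-3.57), Adamts9 (-3.01) and Adamts2 (-2.94), and 17 lower and 0 higher in REG, among them Mmp2 (-1.73), Adam8 (-3.12) and Adamts1 (-1.68).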

How the data were processed

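RNA from whole liver was sequenced on a NovaSeq instrument. The submitters' processing notes name cutadapt 1.15, HISAT2 2.0.5, HTSeq 0.9.1, DESeq 1.30.0 and the build GRCm38; the annotation release and whether strand was used in counting are not given in the sources used here. The authors deposited raw read counts per gene and FPKM side by side; FPKM was recomputed from the counts and lengths to a relative difference of at most 9.19e-07. Columns named MSC_E were taken as hADMSCs-Exo because the labels name ADMSCs-Exo; the 3 hADMSCs samples were not analysed here. Replicate numbers come from sample titles.

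Each comparison was fitted on its own 6 libraries with edgeR 4.0.16 (R 4.3.3; TMM, filterByExpr, glmQLFit, glmQLFTest, two-sided, Benjamini-Hochberg over all tested genes). SE is the log2 fold change divided by the square root of F. Log2 CPM used a prior count of 2; exact permutation tests used scipy 1.17.1. Alternatives were RLE factors, library totals only (chosen after seeing the data), DESeq2 1.42.0, limma voom 3.58.1 with quality weights, no filter (at least 1 count in total), a minimum of 10 counts per library, 1 fit of all 9 libraries, the replicate block, other scales for the overlap of libraries and each library left out. The scripts were tested on simulated data. The 7 genes, the lists and markers were chosen with earlier results of these data known. Named were the 7 genes, up to 4 genes per list and comparison with the smallest unadjusted p under 0.05, Plg, Serpinf2, Mmp2 and Mmp14, and the 3 genes most like each of the 7; 1 further gene that the rule names is not reported here. Promoter windows were cut at the first base found in an exon of any GENCODE M21 transcript of the gene.

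Counts of replicates differed by more than sampling noise in all pairs (chi-square per gene of 27.0 or more), so no library was counted as a duplicate. Same-numbered libraries of hADMSCs-Exo and LFG deviated together (r of 0.107, 0.313 and 0.191 across genes), which by the rule used (each over 0.1) pairs those numbers; the labels do not say what a number shares. For hADMSCs-Exo and REG r was 0.143, -0.00731 and 0.0273, and for REG and LFG 0.423, -0.207 and 0.315, which pairs none. Libraries of different numbers had r of -0.177 to 0.0324 for hADMSCs-Exo and LFG. Elsewhere they reached 0.361 (REG 1 with LFG 2), 0.260 (REG 2 with LFG 3) and 0.171 (hADMSCs-Exo 3 with REG 2). An r over 0.1 therefore does not by itself mark a pairing. Intervals of counts cover counting error only.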

Additional observations from a re-analysis of the deposited data

How the results depend on the processing

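None of the 7 genes changed direction with RLE factors, library totals or DESeq2. Library totals moved the median log2 fold change of all genes from -0.059 to -0.18 for hADMSCs-Exo against LFG and from -0.068 to -0.27 for REG against LFG. For hADMSCs-Exo against REG, signs turned for Timp1 (0.094) and Timp3 (0.087) without hADMSCs-Exo 1 and for Timp3 without hADMSCs-Exo 3 (0.033), in ranges of -1.56 to 0.094 and -2.05 to 0.087 with a library left out. Plau turned without LFG 1, in ranges of -1.003 to 0.49 for hADMSCs-Exo and -1.18 to 0.31 for REG against LFG. Under the replicate block Plau turned to 0.094 for hADMSCs-Exo against LFG. As in the main fits, the block called 0 of the 7 genes in any comparison. It moved REG against LFG from -0.61 to -0.0072 for Timp3, from -1.43 to -0.75 for Plat, from -0.68 to -0.12 for Plau and from -1.08 to -0.68 for Timp2, and hADMSCs-Exo against REG from -0.37 to -0.98 for Timp3, from -0.41 to -0.66 for Timp1 and from -0.37 to -0.66 for the median of the 7 genes. Of the 7 genes, called against LFG were 1 by DESeq2, 1 by limma voom and 1 with all 9 libraries in one fit for hADMSCs-Exo (0 to 3 with a library left out), and 1 by DESeq2 and 3 by limma voom for REG (0 to 5 with a library left out). Genes called among all for hADMSCs-Exo against REG were 1 by edgeR, 67 by DESeq2, 3 by limma voom, 4 with no filter, 0 with all 9 libraries in one fit and 0 to 1 with a library left out. Against LFG they were 60, 1 and 1 for hADMSCs-Exo by DESeq2, limma voom and the fit of all 9 (0 to 773 with a library left out), and 239 and 1285 for REG by DESeq2 and limma voom (0 to 1391). The highest of these counts came without LFG 3. The causes were not tested. Over the single genes and settings, 261 values kept direction and call, 15 gained a call and 6 reversed. Plat in hADMSCs-Exo rested on 1 to 13 counts, where counting error is large.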
